A study of Mus musculus with 4 samples.

Results

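The genes described here encode proteins of the mitochondrial ribosome, and they were chosen by symbol, as every row of the count table named Mrpl or Mrps followed by a number and an optional a or b. The rule found 76 of 35976 gene rows, 48 Mrpl genes named after the large subunit and 28 Mrps genes named after the small subunit. The rule itself uses no measured value, though the members were chosen with earlier results of these data known. Mrps18c ends in another letter and so fell outside the rule. It is described with the mitoribosomal proteins that carry other names.

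The cells were mouse E14 embryonic stem cells, a widely used pluripotent line whose strain the labels give as 12910la, grown on gelatin with serum and the cytokine LIF. The knockdown group had 2 libraries, with the genotype given as knocked down, from cells in which a pSuper puro vector delivered a short hairpin RNA. Its target was Lx8-SINE B2, whose name joins an Lx8 repeat to a B2 short interspersed element, and the level of that RNA was not analysed here. The control group had 2 libraries with the genotype given as wild type. A transfection with 1000 ng of vector, a wait of 24 h and 3 days in puromycin at 1 ug/ml were written for all samples, and the vector of the control cells was not stated. Only the knockdown titles carry the word batch, so any batch difference and that of the knockdown cannot be told apart. Nothing says that libraries were grown as separate cultures, so p-values reflect only variation among the sequenced libraries, possibly technical.

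Mitochondria keep a ribosome of their own, which translates only the few mRNAs of the mitochondrial genome, all for subunits of the respiratory chain and the ATP synthase. Its rRNAs come from the mitochondrial genome, but its proteins are encoded in the nucleus, made in the cytosol and imported. Many of these proteins descend from proteins of the bacterial ribosome, and others were gained in the mitochondrial lineage. Embryonic stem cells draw much of their energy from glycolysis and are known for comparatively immature mitochondria. Names and places do not always match: the products of Mrps30 and Mrps18a sit in the large subunit, and that of Mrps36 is now known as a part of the oxoglutarate dehydrogenase complex. In bulk RNA, fewer cells of a type and less RNA per cell cannot be told apart.

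Total counts were 18592224 and 16383323 in the knockdown libraries and 19867689 and 19044832 in the controls, of which the 76 genes took 0.319% and 0.331% in the knockdown libraries and 0.369% and 0.342% in the controls. The 9 stem cell markers had a summed level of 5392 and 5883 CPM (read counts in proportion to TMM-scaled library size) in the knockdown libraries and 7519 and 7266 CPM in the controls. All 9 were detected in each library, and 7 of them, including Pou5f1, Sox2 and Nanog, overlapped between groups. Both knockdown libraries lay under both controls in Tdgf1 and Dppa5a, named after their values were seen. The 8 fibroblast markers summed to 20.04 and 19.3 CPM in the knockdown libraries and 27.6 and 38.1 CPM in the controls, with Lum at 0 throughout, 2 markers under both controls, 1 (Pdgfra) above both and 5 overlapping. The 5 endoderm markers summed to 29.9 and 19.0 CPM in the knockdown libraries and 9.30 and 12.7 CPM in the controls, with Afp at 0 in control replicate 1, 3 markers above both controls and 2 overlapping. The sums did not overlap between groups, although most single stem cell and fibroblast markers did. Over all tested genes, 24.6% lay under both controls, 27.3% lay above both and 51.9% did not overlap. The part of these markers in the results below was not tested.

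All 76 genes passed the filter on low counts, at mean levels from 9.62 to 118 CPM. Promoter sequences of 67 of them were in the RefSeq table of GRCm38.p6, from 250 bases before to 50 bases after each start. These windows were searched on both strands for the motifs of 4 factors known to act at promoters of mitochondrial genes or of housekeeping genes. For a gene with several starts a match at any start counted, and an ETS match and a YY1 match can share 3 bases. The motif of NRF1, a regulator of nuclear genes for mitochondrial proteins, is the run in capitals in the Mrpl12 sequence below with the fifth base free. It stood in 13 of the 67 genes (19.4%), against 10.2% of 11839 tested genes with a promoter. CCGGAAG, the core motif of ETS factors such as GABP, stood in 24 (35.8%), against 18.05% of tested genes. AAGATGGCG, the motif of YY1, stood in 8 (11.9%), against 3.15%, and with a further G at its end in 5 (7.46%), against 2.06%. The motif of the zinc finger factor ZNF143, the run in capitals in the next sequences with the eighth base free, stood in 4 (5.97%), against 2.25%. All 4 of these were Mrpl genes, and they are shown because both knockdown libraries lay below both controls in each of them. These RefSeq sequences are given as 30 bases from 5′ to 3′ on the strand of the gene, with the match in capitals.
Mrpl24 (chr3:87919398-87919427, plus strand, match from 137 bases before the start): tctctgtgaACTACAACTCCCagtggtctc
Mrpl34 (chr8:71464714-71464743, plus strand, match from 203 bases before the start): aggcgaagaACTACAACTCCCagaaggcca
Mrpl42 (chr10:95501974-95502003, minus strand, match from 45 bases before the start): ctggcagagACTACAACTCCCagagtgcct
Mrpl50 (chr4:49521206-49521235, minus strand, match from 143 bases before the start): accgctccaACTACAACTCCCaacatgccc
The 250 bases before the start of Mrpl12, whose product forms the flexible stalk of the large subunit and has been found bound to the mitochondrial RNA polymerase, are shown because Mrpl12 had the lowest log2 fold change after Mrpl30. The NRF1 motif is in capitals.
Mrpl12 (chr11:120484387-120484636, plus strand): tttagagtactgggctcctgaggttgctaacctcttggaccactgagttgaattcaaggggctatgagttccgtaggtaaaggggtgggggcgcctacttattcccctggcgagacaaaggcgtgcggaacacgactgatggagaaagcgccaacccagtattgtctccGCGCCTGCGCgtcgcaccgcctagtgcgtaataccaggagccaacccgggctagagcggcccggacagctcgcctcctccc

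The design's only comparison asked how transcript levels differed between knockdown and control cells. With edgeR's quasi-likelihood test, 0 of the 76 genes passed an adjusted p of 0.05, where 1.43% of all 16209 tested genes did (0.876% higher and 0.555% lower). At an unadjusted p below 0.05, 6 members were lower and 0 were higher in the knockdown cells, 7.89% of the members, against 19.6% of all tested genes (11% higher and 8.58% lower). The family held fewer nominal calls than the table as a whole. DESeq2 and limma-voom also called 0 members, and each put 5 below an unadjusted p of 0.05, all of them lower. DESeq2 called 1107 genes over the whole table, more than edgeR. The edgeR shares above are therefore not the background for these tools. Fitted changes were small. Their size had a median of 0.20 on the log2 scale and reached 0.81 at most, with standard errors from 0.17 to 0.32. Among tested genes in the same range of levels, 153 of 7639 were called, and the smallest called change had a size of 0.95.

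The family leaned to lower levels. Log2 fold changes, knockdown over control, were below 0 in 56 genes and above 0 in 20, with a median of -0.15, against a median of 0.01 and 49.5% below 0 over all tested genes. Both knockdown libraries lay below both controls in 29 of the 76 genes (38.2%), against 24.6% of all tested genes, and above both controls in 5 (6.58%), against 27.3%. The remaining 42 genes overlapped between groups, while over all tested genes 51.9% did not. The summed level of the family was 3107 and 3301 CPM in the knockdown libraries and 3874 and 3377 CPM in the controls. The groups did not overlap, but knockdown replicate 2 and control replicate 2 lay close together and control replicate 1 stood above all others.

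**Figure D1:**
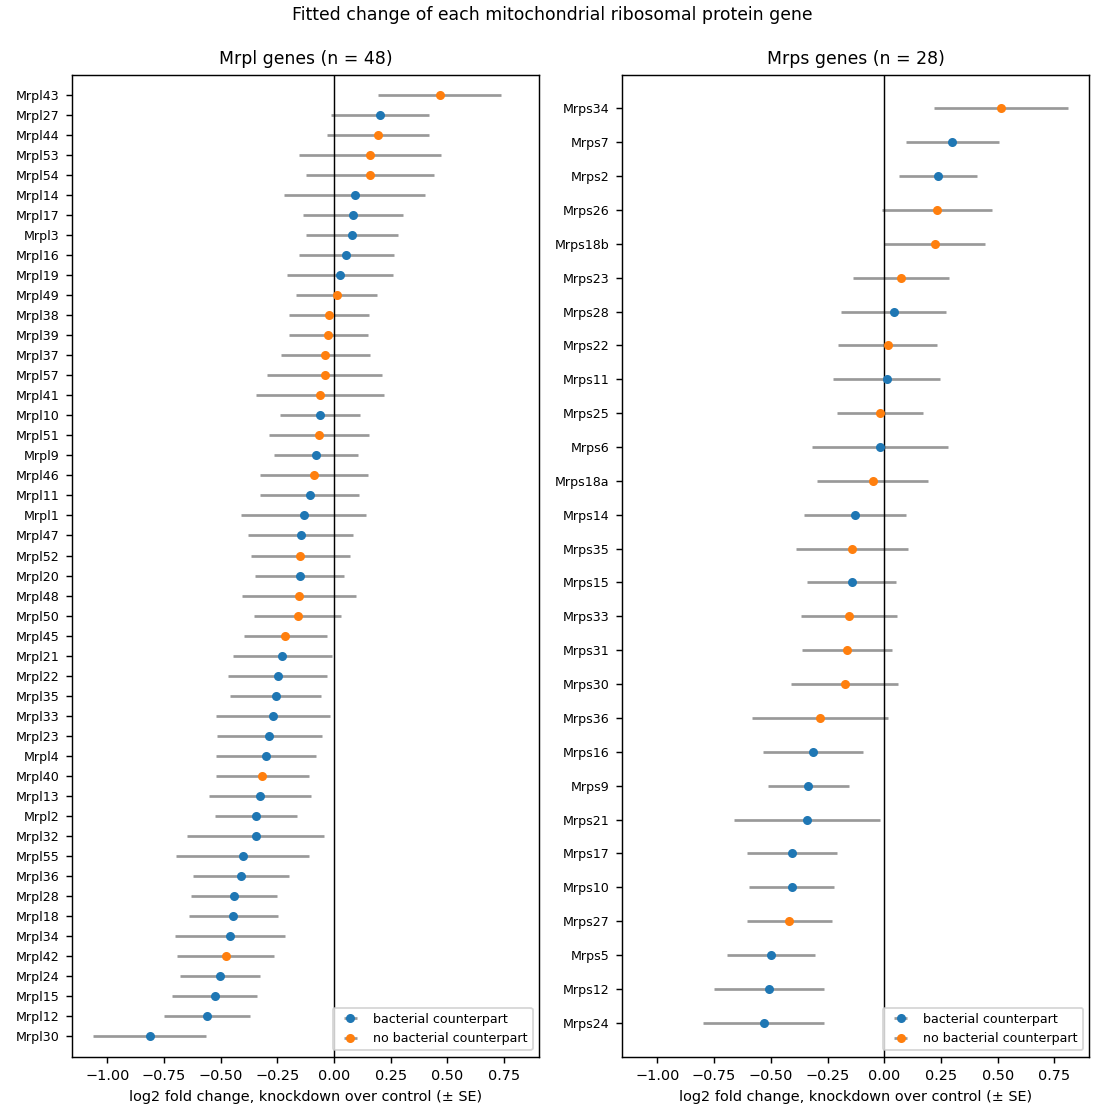
Log2 fold change, knockdown over control, of each of the 48 Mrpl genes (left) and 28 Mrps genes (right), with bars of 1 standard error from edgeR. Points lie mostly left of 0, down to -0.81 for Mrpl30 and up to 0.51 for Mrps34, and blue points (genes with a bacterial counterpart) fill most of the lower end.

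For the family as a whole the lean was larger against control replicate 1 than against control replicate 2. Control replicate 1 was above control replicate 2 in 55 of the 76 genes, against 49.8% of all tested genes, and the gap between the controls exceeded the fitted change in 44. The median log2 ratio of knockdown replicate 1 was -0.35 against control replicate 1 and -0.09 against control replicate 2. For knockdown replicate 2 the medians were -0.21 and -0.04 in the same order. For Mrps genes alone, knockdown replicate 1 was at -0.21 and -0.20 against control replicates 1 and 2, and knockdown replicate 2 at -0.12 and 0.01. Over the 4 fits that left out 1 library, 41 genes stayed below 0, 6 stayed above 0 and 29 took both signs. Under the 3 other scalings of the libraries, 11 genes changed sign.

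**Figure D2:**
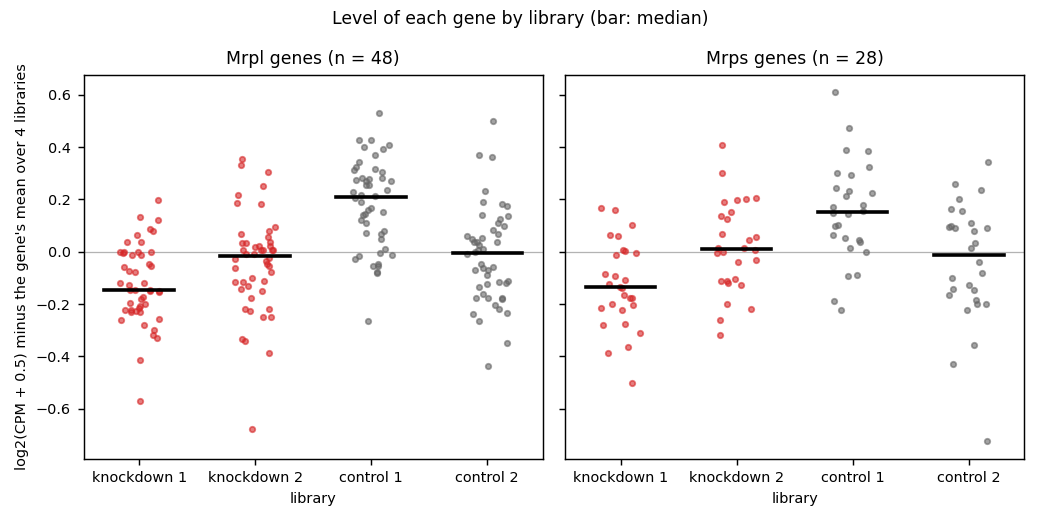
Level of each gene in each library, as log2(CPM + 0.5) minus the gene's mean over the 4 libraries, for Mrpl genes (left) and Mrps genes (right), with the median as a bar. Medians are lowest in knockdown replicate 1 (-0.15 for Mrpl and -0.14 for Mrps) and highest in control replicate 1 (0.21 and 0.15), while knockdown replicate 2 and control replicate 2 sit near 0.

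Mrpl and Mrps genes had close medians. For the 48 Mrpl genes the median log2 fold change was -0.15, with 37 below 0, 18 with both knockdown libraries under both controls and 2 with both above. The 28 Mrps genes had a median of -0.14, with 19 below 0, 11 under both controls and 3 above. The shares under both controls were 37.5% of Mrpl and 39.3% of Mrps genes, against 24.6% of all tested genes. Those above both were 4.17% and 10.7%, against 27.3%. Summed Mrpl transcripts were at 2052 and 2156 CPM in the knockdown libraries and 2601 and 2259 CPM in the controls. Summed Mrps transcripts were at 1055 and 1144 CPM in the knockdown libraries and 1274 and 1119 CPM in the controls. The Mrpl sums did not overlap between groups, whereas the Mrps sum of knockdown replicate 2 lay between the controls. The ratio of the Mrpl sum to the Mrps sum was 1.95 and 1.88 in the knockdown libraries and 2.04 and 2.02 in the controls. The mean ratio in the knockdown libraries was 0.943 of that in the controls, and from 0.928 to 0.958 when any 1 library was left out. With 2 libraries a group no exact test of this ratio can reach a threshold of 0.05, and none was made. Leaving out knockdown replicate 1 or 2 gave Mrpl medians of -0.09 and -0.23, and leaving out control replicate 1 or 2 gave -0.05 and -0.34. For Mrps genes these medians were -0.06, -0.21, -0.11 and -0.19 in the same order.

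Medians lay further apart by descent than between Mrpl and Mrps genes. By the current nomenclature of ribosomal proteins, 45 of the genes encode a protein with a bacterial counterpart and 31 encode one without. With a counterpart the median log2 fold change was -0.27, and 21 of 45 (46.7%) had both knockdown libraries under both controls. Genes without one had a median of -0.05, with 8 of 31 (25.8%) under both controls, near the 24.6% of all tested genes. All 6 genes at an unadjusted p below 0.05 had a counterpart, 6 of 45, a smaller share than the 19.6% of all tested genes. The split was similar under both names, with medians of -0.26 (with) and -0.05 (without) among Mrpl genes, and -0.31 (with) and -0.05 (without) among Mrps genes. Median levels of the classes were close, at 39.9 CPM with and 38.8 CPM without a counterpart, and median transcript lengths were 1.22 and 1.43 kb. Without control replicate 1 the medians were -0.16 with and 0.07 without a counterpart, so the median of genes without a counterpart turned sign. With no scaling beyond the library total that median was 0.00, against -0.21 with a counterpart. Leaving out knockdown replicate 1 gave -0.16 with and -0.04 without a counterpart, leaving out knockdown replicate 2 gave -0.29 and -0.12, and leaving out control replicate 2 gave -0.40 and -0.16. Mrps18a and Mrps18b, paralogues of a bacterial protein that carry mitochondrial names, were counted without a counterpart. With them moved, the medians were -0.26 and -0.06. The class difference is a description over genes that share the same libraries and was not tested.

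Among Mrpl genes the lowest changes were those of Mrpl30, Mrpl12, Mrpl15 and Mrpl24, whose products are core proteins of the large subunit with bacterial counterparts. Mrpl30, on chromosome 1 from 37890477 to 37898535 (GENCODE M21, mm10), had 26.1 and 17.9 CPM in the knockdown libraries, against 36.2 and 41.0 CPM in the controls. The log2 fold change was -0.81 ± 0.25 (SE from edgeR, as below), 56.9% of the control level, and did not pass (edgeR adjusted p = 0.13). Both knockdown libraries were lower than both controls, and the value was -1.11 with knockdown replicate 1 left out and -0.57 with knockdown replicate 2 left out. With no filter on low counts, Mrpl30 was the 1 member called, at an edgeR adjusted p of 0.0366. Under the other settings, fits without 1 library included, it was not called.

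Mrpl12, on chromosome 11 from 120484613 to 120489065, had 67.6 and 61.6 CPM in the knockdown libraries and 105 and 85.3 CPM in the controls. The groups did not overlap, and the log2 fold change was -0.56 ± 0.19 (SE; adjusted p = 0.158 with edgeR). Mrpl15, on chromosome 1 from 4773206 to 4785739, had 86.9 and 107 CPM in the knockdown libraries and 130 and 149 CPM in the controls, a log2 fold change of -0.53 ± 0.19 (SE; adjusted p = 0.177 with edgeR). Here the higher knockdown library stayed below the lower control. Mrpl24 had 61.6 and 68.0 CPM in the knockdown libraries and 95.8 and 87.6 CPM in the controls, a log2 fold change of -0.50 ± 0.18 (SE; adjusted p = 0.175 with edgeR). Each pair of libraries lay close together and apart from the other pair. Its exons overlap those of Rrnad1 on the opposite strand, a gene at 0.14, and the strand setting of the counting is not given in the sources used here. Mrpl28, named after its value was seen as the last of the 5 Mrpl genes below an unadjusted p of 0.05, had 59.9 and 58.7 CPM in the knockdown libraries and 89.2 and 71.8 CPM in the controls. Its log2 fold change of -0.44 was -0.28 without control replicate 1.

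The highest changes among Mrpl genes were smaller. Mrpl43, a gene for a large subunit protein without a bacterial counterpart, had 18.8 and 21.6 CPM in the knockdown libraries and 16.8 and 12.5 CPM in the controls, a log2 fold change of 0.47 ± 0.27 (SE; adjusted p = 0.387 with edgeR). Both knockdown libraries were above both controls, and the value was 0.22 without control replicate 2 and 0.69 without control replicate 1. Its exons overlap those of the mitochondrial helicase gene Twnk on the opposite strand, listed as Peo1 and at -0.02. Mrpl27, whose product lies near the peptidyl transferase centre, had 26.8 and 26.0 CPM in the knockdown libraries and 23.2 and 22.6 CPM in the controls, a log2 fold change of 0.20. Groups were apart, with close replicates, and its standard error of 0.22 was as large as the change. Mrpl44, whose product carries an RNase III-like fold, and Mrpl53, for a protein without a bacterial counterpart, were at 0.19 and 0.16 with overlapping groups, and at -0.02 and -0.04 without control replicate 2.

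Among Mrps genes the lowest changes were those of Mrps24, Mrps12 and Mrps5. Mrps12 encodes the counterpart of the bacterial protein that governs decoding accuracy and streptomycin sensitivity. It had 24.1 and 28.6 CPM in the knockdown libraries and 43.5 and 31.4 CPM in the controls, a log2 fold change of -0.51 ± 0.24 (SE; adjusted p = 0.295 with edgeR). The groups did not overlap, but knockdown replicate 2 was near control replicate 2, and the value was -0.26 without control replicate 1. Mrps24 had 36.5 and 32.8 CPM in the knockdown libraries and 62.8 and 37.4 CPM in the controls. Its log2 fold change of -0.53 rested on control replicate 1, without which it was -0.11. Mrps5, on chromosome 2 from 127587222 to 127606829, was the 1 Mrps gene at an unadjusted p below 0.05, with 75.6 and 91.6 CPM in the knockdown libraries and 130 and 107 CPM in the controls. Its log2 fold change was -0.50 ± 0.19 (SE; adjusted p = 0.207 with edgeR), and the groups did not overlap. Mrps27, which encodes an RNA-binding protein with pentatricopeptide repeats, had the closest replicates, at 37.7 and 38.1 CPM in the knockdown libraries and 50.8 and 50.4 CPM in the controls. Its log2 fold change of -0.42 ranged only from -0.47 to -0.41 over the fits without 1 library, and did not pass (edgeR adjusted p = 0.269).

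The highest log2 fold change of the whole family was that of an Mrps gene. Mrps34, needed for the stability of the small subunit, had 48.5 and 57.7 CPM in the knockdown libraries and 48.3 and 26.0 CPM in the controls. The lower knockdown library and the higher control were nearly equal, so the log2 fold change of 0.51 (standard error 0.30, edgeR adjusted p = 0.383) rested on control replicate 2, without which it was 0.09. Mrps7, a counterpart of the bacterial protein that starts assembly of the small subunit head, had 65.5 and 70.4 CPM in the knockdown libraries and 62.9 and 47.5 CPM in the controls, a log2 fold change of 0.30. It was 0.06 without control replicate 2, and its exons overlap those of Gga3 and Mif4gd on the opposite strand. Mrps2 had 87.2 and 81.2 CPM in the knockdown libraries and 72.8 and 70.1 CPM in the controls, a log2 fold change of 0.24 ± 0.17 (SE; adjusted p = 0.492 with edgeR). In all 3 genes both knockdown libraries lay above both controls.

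**Figure D3:**
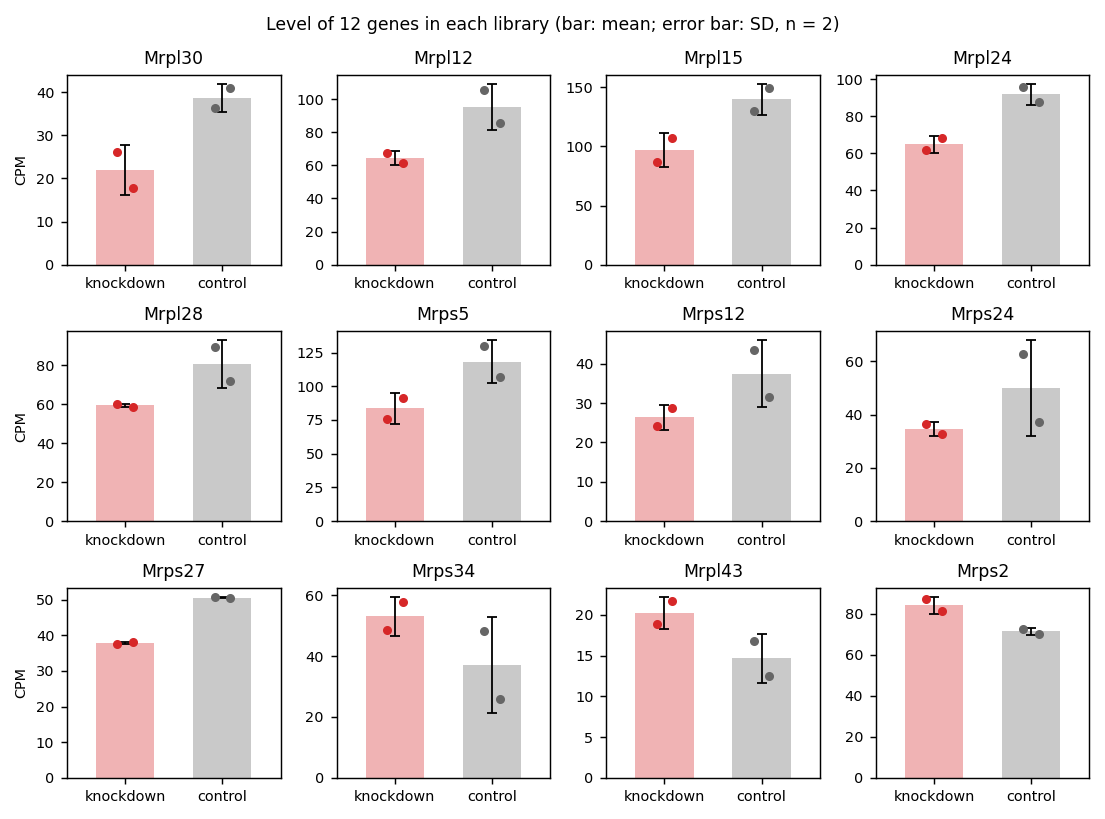
CPM of 12 genes in the knockdown libraries (red, left) and the controls (grey, right), with the mean as a bar from 0 and the SD as an error bar (n = 2 each). In the first 9 genes both knockdown libraries lie under both controls and in Mrps34, Mrpl43 and Mrps2 both lie above.

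Other members with a known role had smaller changes, and Mrpl10, Mrpl11, Mrpl41, Mrps28, Mrps18a and Mrps30 took both signs over the fits without 1 library. Mrpl10 and Mrpl11, for proteins at the base of the stalk that contacts translation factors, were at -0.06 and -0.11, with overlapping groups. Mrpl45, whose product anchors the ribosome to the inner membrane, had 99.1 and 105 CPM in the knockdown libraries and 131 and 106 CPM in the controls, a log2 fold change of -0.22 ± 0.18 (SE; adjusted p = 0.558 with edgeR). Knockdown replicate 2 and control replicate 2 were nearly level, and the value was -0.06 without control replicate 1. Mrpl41, a gene for a large subunit protein without a bacterial counterpart, was at -0.06, and Mrps28, whose product is related to the bacterial protein that binds mRNA, was at 0.04. The paralogues Mrps18a and Mrps18b were at -0.05 and 0.22, also with overlapping groups. Mrps30 had 54.5 and 44.7 CPM in the knockdown libraries and 45.7 and 66.2 CPM in the controls, with control replicate 1 between the knockdown values and control replicate 2 above both. Mrps36, named after its value was seen because its product is no longer counted as ribosomal, was at -0.28.

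Levels between genes were compared per kilobase of annotated exon (GENCODE M21), which places the family between 3.50 and 88.2 CPM per kb with a median of 26.6. The highest Mrpl genes on this scale were Mrpl34, Mrpl52 and Mrpl18, at 88.2, 78.7 and 77.7 CPM per kb as means over the 4 libraries. The highest Mrps genes were Mrps34, Mrps9 and Mrps10, at 49.2, 46.3 and 44.0 CPM per kb. Mrpl34 had 76.3 and 72.3 CPM per kb in the knockdown libraries and 125 and 79.7 CPM per kb in the controls. Its groups did not overlap, with control replicate 1 far above the rest. Mrpl18 and Mrpl34 had log2 fold changes of -0.45 and -0.46, Mrps9 and Mrps10 of -0.33 and -0.41, and Mrpl52 of -0.15. Without control replicate 1 the values were -0.24 for Mrpl18, -0.10 for Mrpl34 and 0.05 for Mrpl52, and -0.33 and -0.47 for Mrps9 and Mrps10. The exons of Mrpl18 overlap those of Tcp1 on the opposite strand, a gene at a log2 fold change of -0.53. Whether reads were shared between Mrpl18 and Tcp1 was not tested. Mrps9 and Mrps10 kept their groups apart with close replicates, with Mrps9 at 55.8 and 60.3 CPM in the knockdown libraries and 73.7 and 72.7 CPM in the controls. Across the 76 genes, which share the same 4 libraries, the log2 fold change had a Pearson correlation of 0.06 with log10 transcript length and -0.19 with log2 mean CPM. These values hold within the family only, whose median length of 1.38 kb was well below the 3.15 kb of tested genes.

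Of the 4 genes with a ZNF143 motif shown above, Mrpl42 had 46.5 and 40.2 CPM in the knockdown libraries and 68.5 and 52.1 CPM in the controls, a log2 fold change of -0.48. Mrpl50 had 42.8 and 49.3 CPM in the knockdown libraries and 50.4 and 52.6 CPM in the controls, a log2 fold change of -0.16. Both were named after their values were seen. The median of the 4 genes was -0.47, against -0.15 for members with a promoter and no match. Without control replicate 1 these medians were -0.23 and -0.07, and without control replicate 2 they were -0.66 and -0.31. Over all 266 tested genes with this match the median was -0.01, and 21.4% had both knockdown libraries under both controls, close to the background of 24.6%. Members with an NRF1 match had a median of -0.08, and those with an ETS match -0.11. Members without these matches were at -0.15 and -0.16. For YY1 the median rested on the spelling: the 8 genes with the motif as spelled above had -0.34, the 5 with the further G had -0.05, and members without it had -0.15 under both spellings. The longer spelling was searched first, and the shorter was added after its values were seen.

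Many of these genes share a start region with a neighbour. In GENCODE M21, 17 of the 76 (22.4%) had another coding gene starting on the opposite strand within 1000 bases upstream, against 9.56% of 13730 tested coding genes. All 17 neighbours were tested, and 0 were called by edgeR, against 1.43% of all tested genes. Their median log2 fold change was 0.00. Mrps12 and Sars2, the mitochondrial seryl-tRNA synthetase gene whose start lies 172 bases away, had opposite signs, at -0.51 and 0.33. Mrpl30 and its neighbour Mitd1, 66 bases away, were at -0.81 and -0.29. Eme2, for a partner of the MUS81 nuclease, starts 29 bases from Mrps34. It had 5.60 and 6.45 CPM in the knockdown libraries and 1.95 and 1.92 CPM in the controls, a log2 fold change of 1.63 that did not pass (edgeR adjusted p = 0.0815). Ppp1r10, a phosphatase regulator gene 45 bases from Mrps18b, had 195 and 207 CPM in the knockdown libraries and 120 and 99.6 CPM in the controls, a log2 fold change of 0.87 (adjusted p = 0.0566 with edgeR). Neighbours were singled out after their values were seen. Annotated exons of 24 members overlapped those of other genes, tested ones for 15 members, so reads of these genes may be shared.

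Mitoribosomal proteins outside the symbol rule had the same sign. All 7 had log2 fold changes below 0, with a median of -0.24, and 0 were called, against the background of 1.43%. Both knockdown libraries lay under both controls in 5 of the 7 (71.4%), against 24.6% of all tested genes. Dap3, which encodes a GTP-binding protein of the small subunit, had 76.7 and 77.7 CPM in the knockdown libraries and 110 and 119 CPM in the controls, a log2 fold change of -0.57 (adjusted p = 0.121 with edgeR). The pairs were far apart and each was close. Ptcd3, for a pentatricopeptide repeat protein of the small subunit, had 114 and 116 CPM in the knockdown libraries and 128 and 154 CPM in the controls, at -0.30. Mrps18c, the remaining paralogue of Mrps18a and Mrps18b, was at -0.05.

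Genes that build, run or regulate the mitochondrial ribosome were given by lists, and edgeR called 0 members of each, against 1.43% of all tested genes. The 28 genes for assembly and rRNA modification had a median of 0.01 on the log2 scale, with 15 above 0. Both knockdown libraries lay under both controls in 8 (28.6%) and above both in 7, where all tested genes had 24.6% and 27.3%. Its most abundant members, the helicase gene Dhx30 and the protease gene Afg3l2, were at -0.09 and -0.24. For translation factors, 16 genes had a median of -0.11, with 3 above 0. In 8 of them (50%) both knockdown libraries lay under both controls and in 1 above. Tufm, which encodes the mitochondrial elongation factor Tu, had 118 and 135 CPM in the knockdown libraries and 191 and 147 CPM in the controls, at a log2 fold change of -0.42 (adjusted p = 0.286 with edgeR). Lrpprc, for a stabiliser of mitochondrial mRNAs, was at -0.12. For transcription and replication of mitochondrial DNA, 16 genes had a median of -0.12 with 2 above 0, 6 (37.5%) under both controls and 2 above both. Polg and Elac2 were at -0.06 and 0.27. For regulators of mitochondrial biogenesis, 9 of 10 genes were tested, with a median of -0.09, 2 under both controls and 1 above both. Pprc1 and Mycn were at -0.11 and 0.27. In the order given, 2, 2, 3 and 1 genes of these lists were at an unadjusted p below 0.05, 8 of 69 (11.6%), against 19.6% of all tested genes.

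The mitoribosomal genes, at a median of -0.15, were set beside 3 gene families of protein synthesis and respiration. For the 84 tested genes of cytosolic ribosomal proteins the median log2 fold change was -0.31, with both knockdown libraries under both controls in 66.7% and 1 called. The 77 nuclear genes of the respiratory chain and ATP synthase had a median of -0.31, with 63.6% under both controls and 0 called. Over all tested genes 24.6% lay under both controls and 1.43% were called. The 13 mRNAs that the mitochondrial ribosome translates had a median of -0.25, with 30.8% under both controls and 0 called. Their summed level was 5806 and 7198 CPM in the knockdown libraries and 6897 and 11162 CPM in the controls. That sum overlapped between groups. In the controls it was higher in replicate 2, where the sum of the mitoribosomal genes was lower. Control replicate 1 was above control replicate 2 in 73 of the 84 cytosolic genes and in 62 of the 77 respiratory chain genes, as it was in most mitoribosomal genes. These families share the same 4 libraries, and the differences between them were not tested.

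**Figure D4:**
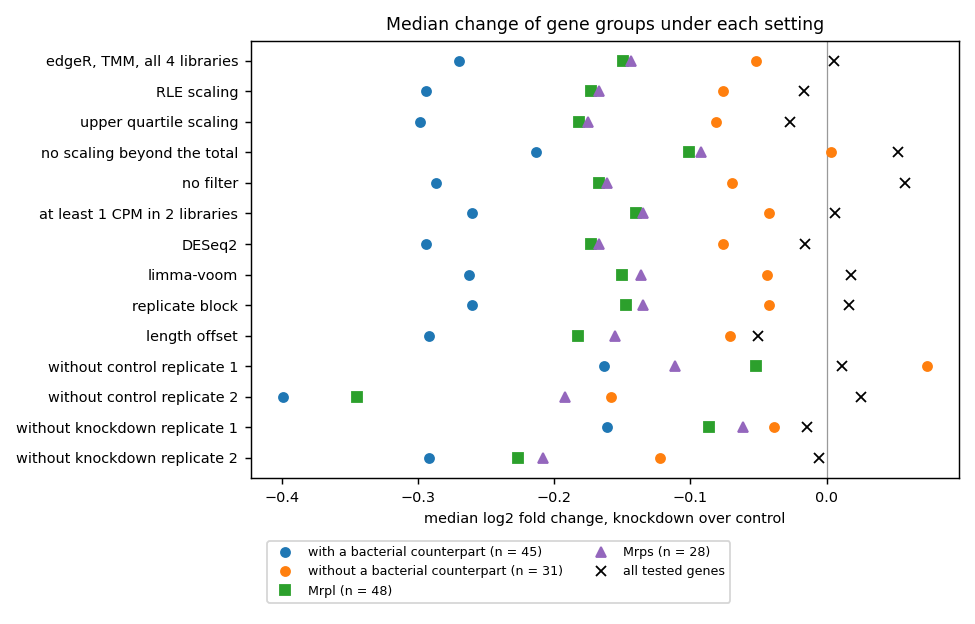
Median log2 fold change, knockdown over control, of Mrp genes with and without a bacterial counterpart, of Mrpl and Mrps genes and of all tested genes, under each setting of the analysis. Medians of Mrpl and Mrps genes stay below 0 under the settings shown. The Mrpl median moves most when control replicate 2 is left out (-0.34) and the Mrps median when knockdown replicate 1 is (-0.06), and the median without a bacterial counterpart crosses 0 without control replicate 1 (0.07).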

How the data were processed

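For each of 4 libraries the authors deposited unnormalized counts by gene, in 1 table. Per the submitters' processing notes, cutadapt, HISAT2 and featureCounts were used on mm10. Versions, annotation, strand setting and the treatment of reads with several map positions are not stated in these sources. Of 36068 rows, 92 spike-in rows were left out. filterByExpr of edgeR 4.0.16 (R 4.3.3) kept 16209 genes, TMM scaled the libraries, and groups were compared with the quasi-likelihood F-test with Benjamini-Hochberg adjustment over all tested genes, called below 0.05. CPM are TMM-scaled. Standard errors were derived from the fitted change and its F statistic. Alternatives used DESeq2 1.42.0 and limma 3.58.1, other scalings and filters, a replicate block and fits without each library. A length offset and a shorter YY1 spelling were added after the data were seen. The fit was tested on 5 simulated sets of counts with 4-fold changes in 200 genes. On average it recovered 98% of them, and 4.85% of its calls were false. Changes as small as those of the mitoribosomal genes were not simulated. Positions and lengths are from GENCODE M21, promoters from RefSeq GRCm38.p6, and all 76 genes matched GENCODE by symbol. The members and lists were chosen with earlier results of these data known. Genes are named if called, if among the 4 highest or lowest Mrpl or 3 highest or lowest Mrps changes at a mean of at least 5 CPM, if fixed for a known role, if among the 3 most abundant per kb of each subunit, or as up to 3 called or the 2 most abundant genes of a list. Motifs were chosen after values of the genes had been seen. Mrpl57 stood in a list but is a member and was counted with the members.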

Additional observations from a re-analysis of the deposited data

How the results depend on the processing

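The count of called genes over the whole table was 232 and became 1717 with no filter, 1107 with DESeq2, 143 with the length offset and from 153 to 587 without 1 library. Among the mitoribosomal genes 0 were called under all settings but no filter, where 1 was, Mrpl30. The Mrpl median ranged from -0.34 to -0.05 (-0.052 without control replicate 1) with 1 library left out and the Mrps median from -0.21 to -0.06. Under other scalings, filters and tools they ranged from -0.18 to -0.10 and from -0.18 to -0.09. Nothing says whether replicate numbers pair the libraries. Deviations of same-numbered libraries from their group means had a correlation of -0.06. With 2 libraries a group that value cannot show whether they were paired. The replicate block gave 656 called genes, 0 of them mitoribosomal, with Mrpl and Mrps medians of -0.15 and -0.13. Fits with 1 library left out, or with the block, have a single residual degree of freedom, and a lone library is taken to vary as libraries of the opposite group do. With 2 libraries a group and standard errors of at least 0.17 for these genes, changes of the size of their median were not detectable one gene at a time.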
